A study of Mus musculus with 9 samples.

Results

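The enzymes described here are the conjugating enzymes and carboxylesterases of the mouse kidney. Members were all genes whose symbol begins with Gsta, Gstm, Gstp, Gstt, Gsto, Gstk, Gstz, Mgst, Ugt1, Ugt2, Ugt3, Sult, Ces1, Ces2 or Ces3, or is Nat1, Nat2 or Nat3. The RefSeq table listed 91 such symbols, 67 of them had a probe on the array, and 50 were above background on at least 3 of 9 arrays and were tested, out of 17742 genes tested in all. The brightest probe stood for each gene, and a level is the log2 of its signal over the 75th percentile of that array, so that 0 is the 75th percentile.

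Glutathione S-transferases join the tripeptide glutathione to reactive electrophiles, UDP-glucuronosyltransferases attach glucuronic acid, sulfotransferases attach sulfate and arylamine N-acetyltransferases attach an acetyl group. These additions make drugs, toxins and hormones easier to export in urine or bile. Carboxylesterases cleave esters and amides, among them lipid esters and ester prodrugs, and the proximal tubule of the kidney is a main site of these reactions outside the liver.

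All 9 mice were males aged 10 weeks of the ISAM line, genotype Epo–/–::3.3K-Epo3'-Tg458, on a mixed strain background, so the controls carry the Epo deletion and the transgene too. The line is a model of erythropoietin-deficiency anaemia, and the labels do not say which cells express the transgene. In the Clip arm (3 kidneys) a vascular clip had closed the left ureter for 2 days. In the ClipR-14 arm (3 kidneys) the same 2 days of closure were followed by 12 days without the clip. The control arm joined 2 sham-treated kidneys (Sham) and 1 untreated kidney (Normal), for which no day of collection is given. Total RNA came from the whole left kidney. Fewer cells of a type and less RNA per cell cannot be told apart in such samples. The labels name samples and do not say how mice were housed or handled together, so p-values measure the spread between these samples.

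The 75th percentile of an array lay between 320 and 439 signal units, and 52.0% to 57.5% of probes were well above background. Each of the 3 slides held 1 array of each arm, and the slide of Normal 1, Clip 3 and ClipR-14 3 was scanned apart from the others. The tissue label was borne out by kidney genes such as Umod and Slc34a1, at mean control levels of 7.97 and 6.98. Of 10 tested markers of the proximal tubule 9 fell in the Clip arm (limma, Benjamini-Hochberg adjusted), and their summed linear level went from 764 to 984 in control to 297 to 398 in Clip and 717 to 917 in ClipR-14 kidneys. The 7 tested markers of thick limb and distal segments all fell. Of 6 fibroblast and myofibroblast markers 6 rose, with summed levels of 28.6 to 34.7, 147 to 187 and 49.0 to 66.3 in the same order of arms, and 5 of 6 macrophage markers rose, with 6.07 to 7.83, 14.5 to 16.1 and 9.03 to 10.8. The part of such shifts in cell make-up in the results below was not tested.

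Most members fell in the obstructed kidney. Of the 50 tested, 30 were lower and 6 higher in Clip than in control kidneys, and 14 did not pass (limma over all 9 arrays, adjusted over 17742 genes, threshold 0.05). Among all genes tested 27.5% were lower and 21.4% higher. The median log2 change was -0.66 over the 50 members and -0.09 over all genes. Falls of at least 2-fold were seen for 20 members and rises of that size for 4. Changes of that size were not counted over all genes. The values of the arms did not overlap for 38 members, against 58.6% of all genes. The 36 called members were all among these 38, which fixed their direction on each of the 3 slides. With quantile normalization in place of the 75th percentile 10 members were higher and 27 lower. Among all genes 4544 were then higher and 4039 lower, in place of 3789 and 4887. Members above background on all 9 arrays numbered 45, with 28 lower and 4 higher. Of all 15127 genes above background on all 9 arrays 4650 were lower and 3120 higher. Gstp3 passed the filter through the Clip arrays alone and Ces1c through the control arrays alone. The filter thus favoured a difference in both, so neither call is support for one. Without Gstp3 and Ces1c 29 of 48 were lower and 5 higher.

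**Figure D1:**
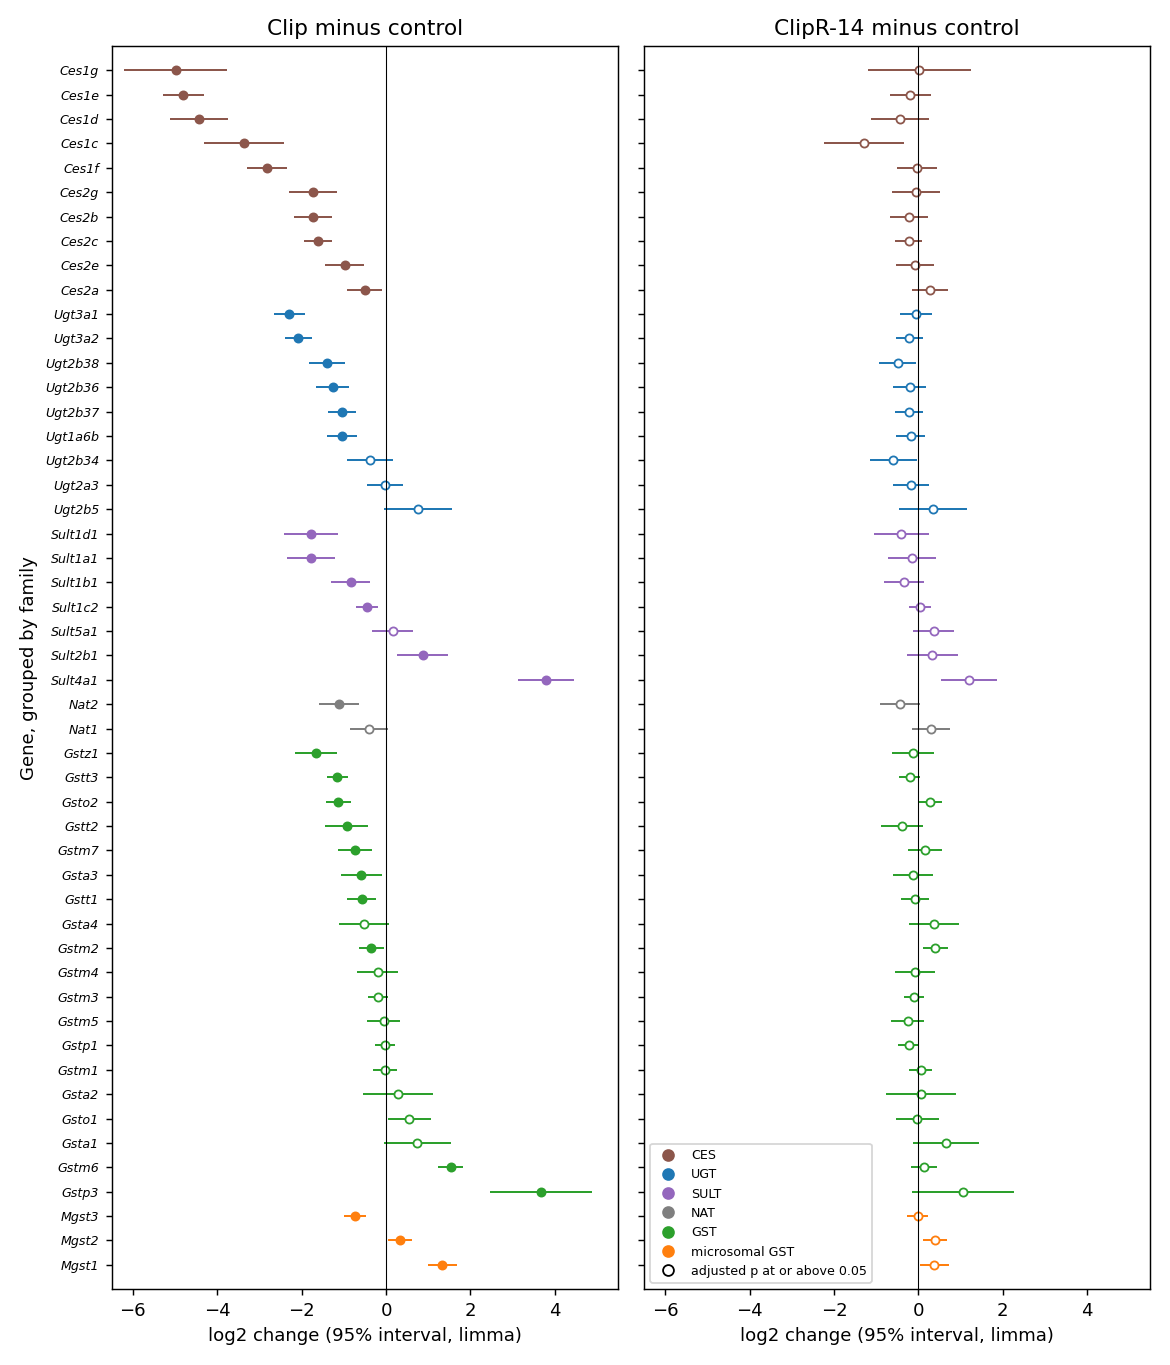
Log2 change of each of the 50 tested members in Clip (left) and ClipR-14 (right) kidneys against control, in log2 units, with the 95% interval of the limma fit (3 arrays an arm). Filled points passed an adjusted p of 0.05. On the left 30 points are filled below 0 and 6 above it, and on the right no point is filled.

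The carboxylesterases gave the largest falls. All 10 tested members of this family were lower in Clip kidneys, with a median log2 change of -2.28. The median was -4.44 over the 5 Ces1 genes and -1.61 over the 5 Ces2 genes. The 10 include Ces1c, whose fall was favoured by the filter, since it passed through the control arrays alone. Its fitted value enters the family and Ces1 medians. With normexp background correction Ces1c and Ces2a changed sign and Ces2e and Ces2g no longer passed. In the mouse the Ces1 genes include esterases and lipases that are also abundant in liver, and the Ces2 genes encode intestinal and hepatic esterases. Ces1c, Ces1d, Ces1e, Ces1f and Ces1g lie next to one another on chromosome 8, with no other member between them.

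Ces1g, also known as esterase-x, hydrolyses triglyceride and cholesteryl esters. Its level was 2.22 and 2.24 on the sham arrays and 0.85 on the untreated array, -3.74, -3.76 and -2.14 on the Clip arrays, and 1.86, 2.20 and 1.31 on the ClipR-14 arrays. The arrays of the slide scanned apart were the lowest control value and the highest Clip value, and the Clip values still lay below every other value. The log2 change was -4.98 ± 0.52 (SE, 3 arrays an arm), a 31.6-fold fall (limma adjusted p = 0.000107), and -2.99 on the slide scanned apart against -5.96 and -5.99 on the others. Normexp gave -3.04 for Ces1g. A second Ces1g probe changed by -5.03.

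Ces1e stood at 3.79, 3.83 and 3.93 in control, at -0.71, -1.40 and -0.76 in Clip, and at 3.85, 3.78 and 3.36 in ClipR-14 kidneys. The Clip arrays were far below both other arms, whose ranges overlapped. The fall was 27.9-fold (-4.80 ± 0.20, limma adjusted p = 1.68e-06). Ces1d, a triacylglycerol hydrolase, had levels of 4.52, 4.36 and 4.66 in control, 0.59, -0.67 and 0.31 in Clip and 4.16, 4.20 and 3.85 in ClipR-14 kidneys. It fell 21.7-fold (-4.44 ± 0.29, limma adjusted p = 1.09e-05), and its ClipR-14 values lay just below those of control.

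Ces1f, another triacylglycerol hydrolase of this cluster, stood at 6.40, 6.33 and 5.81 in control, 3.47, 2.99 and 3.62 in Clip and 6.17, 6.17 and 6.09 in ClipR-14 kidneys. This was a 7.05-fold fall (-2.82 ± 0.20, limma adjusted p = 1.44e-05), with ClipR-14 values inside the control range. Ces1c, a serum carboxylesterase in the mouse, was well above background on the 3 control arrays (-3.26, -3.10 and -3.17) and on none of the others, and was at least 2.69-fold lower in Clip kidneys, where normexp gave 0.12 (limma adjusted p = 0.804). Such a bound sets the brighter arm against the lowest signal well above background on each array of the dimmer arm.

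The upstream sequences of the genes with the 2 largest falls are shown so that they can be compared. Each is the 100 bases before the RefSeq transcription start in GRCm38.p6, 5′ to 3′ on the gene's strand, at chr8:93229620-93229719 for Ces1e and chr8:93337210-93337309 for Ces1g, both on the minus strand.
Ces1e: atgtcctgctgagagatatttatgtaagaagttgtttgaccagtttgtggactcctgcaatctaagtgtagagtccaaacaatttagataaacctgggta
Ces1g: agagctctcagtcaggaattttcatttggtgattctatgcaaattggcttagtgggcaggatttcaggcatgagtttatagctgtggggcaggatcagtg
The full HNF1 palindrome was searched on both strands in the 250 bases before each start, since HNF1 factors drive many proximal tubule and liver genes. It was found in 0.00913% of 32851 promoters and in none of those of the 40 tested members that had an entry. A sequence this rare was unlikely to occur in so few promoters, so its absence says nothing about HNF1 sites in them.

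Among the Ces2 genes, Ces2g changed by -1.73 (normexp -0.10, adjusted p = 0.83), Ces2b by -1.73, Ces2c by -1.61, Ces2e by -0.98 (normexp -0.46, adjusted p = 0.0609) and Ces2a by -0.51 (limma adjusted p = 0.0405). Ces2a was above background on 1 Clip and 2 ClipR-14 arrays and passed in 5 of 18 alternative settings, with 0.48 under normexp. Second probes for Ces2b and Ces2c changed by -1.75 and -1.92.

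Hepatocyte markers were lower in Clip kidneys as well. Of 6 listed, 4 were tested and all 4 fell. Their summed linear level was 3.33 to 5.42 in Clip, against 8.63 to 28.2 in control and 16.8 to 25.6 in ClipR-14 kidneys. Most of that sum was Cyp2e1, a cytochrome P450 that the proximal tubule also expresses, which stood at 4.76 and 4.68 on the sham arrays, 2.82 on the untreated array and 2.16, 1.64 and 2.35 on the Clip arrays. Albumin (Alb) changed by -2.45 ± 0.30. Whether liver-type RNA took part in the carboxylesterase falls was not tested.

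**Figure D2:**
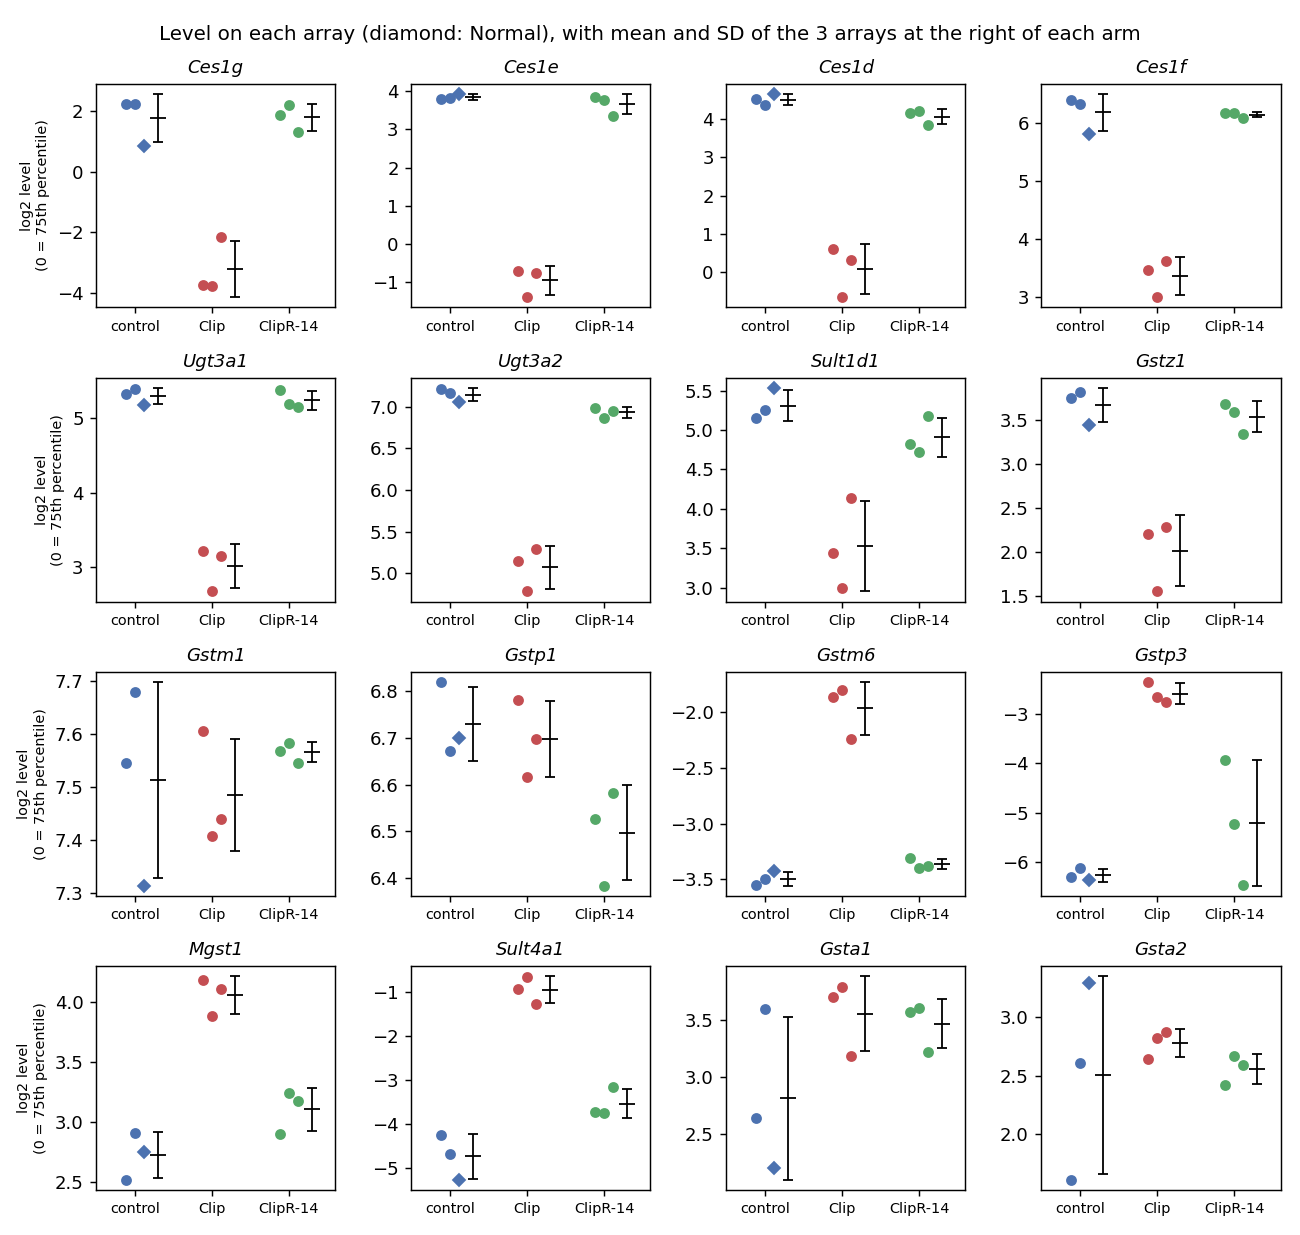
Log2 level of 16 members on each array (points; the diamond is the untreated kidney), with the mean and SD of the 3 arrays of each arm at its right. The vertical axes differ between panels; Ces1g, Ces1e, Ces1d, Ces1f, Ugt3a1 and Ugt3a2 are low on all 3 Clip arrays, Gstm6, Gstp3, Mgst1 and Sult4a1 are high on them, and Gsta1 and Gsta2 are spread widely in control.

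Of 19 cytosolic glutathione transferases tested, 8 fell, 2 rose and 9 did not pass, with a median log2 change of -0.20. The 3 theta genes and the single zeta gene fell, as did 1 of 4 alpha, 2 of 7 mu and 1 of 2 omega genes, whereas 1 of 7 mu and 1 of 2 pi genes rose; differences between these classes were not tested. Under normexp Gstm7 turned from -0.74 to 0.17 and Gsto2 and Gsta3 no longer passed.

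Gstz1, which isomerises maleylacetoacetate in tyrosine breakdown, stood at 3.74, 3.81 and 3.44 in control, 2.20, 1.55 and 2.28 in Clip and 3.68, 3.58 and 3.33 in ClipR-14 kidneys. The fall was 3.15-fold (-1.66 ± 0.21, limma adjusted p = 0.000259), and the ClipR-14 values overlapped with those of control. Gstt3, a theta class transferase, had control levels of 4.59, 4.80 and 4.82, Clip levels of 3.53, 3.72 and 3.50 and ClipR-14 levels of 4.58, 4.54 and 4.48, and fell 2.22-fold (-1.15 ± 0.10, limma adjusted p = 4.32e-05). Gsto2, an omega class enzyme that reduces dehydroascorbate, stood at -1.51, -1.39 and -1.28 in control, -2.60, -2.38 and -2.58 in Clip and -1.19, -1.21 and -0.94 in ClipR-14 kidneys. All 3 ClipR-14 values of Gsto2 were above those of control and all 3 Clip values below (clip change -1.13 ± 0.12, limma adjusted p = 8.97e-05; normexp -0.35, adjusted p = 0.233).

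The abundant mu and pi enzymes did not pass. Gstm1 had levels of 7.54, 7.68 and 7.31 in control, 7.61, 7.41 and 7.44 in Clip and 7.57, 7.58 and 7.55 in ClipR-14 kidneys, and the arms overlapped. Its clip change was -0.03 (95% interval -0.28 to 0.23), but 0.42 with quantile normalization (limma adjusted p = 0.00958). Gstp1 changed by -0.03 (95% interval -0.25 to 0.18), by 0.42 with quantile normalization (limma adjusted p = 0.00488), and by 0.19 on a second probe.

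Gstm6 was the mu gene that rose. Its levels were -3.55, -3.50 and -3.43 in control, -1.86, -1.80 and -2.24 in Clip and -3.31, -3.40 and -3.38 in ClipR-14 kidneys, so that the 3 Clip arrays stood alone. The rise was 2.89-fold (1.53 ± 0.12, limma adjusted p = 2.67e-05; 1.01 under normexp). On chromosome 3 the mu genes follow one another as Gstm5, Gstm7, Gstm6, Gstm3, Gstm2, Gstm1 and Gstm4, and the neighbours of Gstm6 changed by -0.74 (Gstm7) and -0.19 (Gstm3). Gstp3, a pi class gene next to the Gstp1 and Gstp2 genes, was above background on the 3 Clip arrays alone (-2.36, -2.66 and -2.76) and was at least 3.23-fold higher there than in control (limma adjusted p of the fitted change 0.000526). Its ClipR-14 readings of -3.93, -5.24 and -6.46 were not well above background and spread from above to below those of control. The fitted clip change of Gstp3 was 3.67 in the main scaling and 1.28 under normexp.

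The other cytosolic members changed by -0.94 (Gstt2), -0.74 (Gstm7), -0.58 (Gsta3), -0.58 (Gstt1) and -0.35 (Gstm2), which passed, and by -0.53 (Gsta4), -0.20 (Gstm4), -0.19 (Gstm3), -0.06 (Gstm5), 0.27 (Gsta2), 0.56 (Gsto1) and 0.74 (Gsta1), which did not. Gsta3 lost its call in 13 and Gstm2 in 11 of 19 alternative settings. Gsta1 and Gsta2 were the least even of these within the control arm. Gsta1 stood at 2.64 and 3.60 on the sham arrays and 2.20 on the untreated array, and Gsta2 at 1.61, 2.61 and 3.29 in the same order. The Clip and ClipR-14 arrays of both genes spread less, for example 2.65, 2.82 and 2.87 for Gsta2 in Clip kidneys. Gsto1 passed with slide as a block (limma adjusted p = 0.0307), with quantile normalization (0.90, limma adjusted p = 0.00958), with the percentile taken over detected probes (0.71, limma adjusted p = 0.0237), without Normal 1 (0.77, limma adjusted p = 0.0115), which is also the setting with sham arrays alone as control, and without Clip 2 (0.70, limma adjusted p = 0.0458). Gsta1 passed with slide as a block (limma adjusted p = 0.0248), with quantile normalization (0.98, limma adjusted p = 0.0357) and without Sham 2 (1.14, limma adjusted p = 0.00601). Gsta4 passed without Sham 1 (-0.74, limma adjusted p = 0.0388) or Clip 3 (-0.75, limma adjusted p = 0.0337).

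Microsomal glutathione transferases, membrane proteins of a separate family, went both ways. Mgst1, which conjugates and reduces lipid peroxides, stood at 2.52, 2.91 and 2.75 in control, 4.18, 3.88 and 4.10 in Clip and 2.90, 3.24 and 3.18 in ClipR-14 kidneys. All Clip values exceeded all others, and the ClipR-14 range reached from just below the highest control value upward. The rise was 2.52-fold (1.33 ± 0.14, limma adjusted p = 0.000116), and a second probe gave 1.19. Mgst3, a peroxidase and leukotriene C4 synthase, read 2.50, 2.49 and 2.59 in control, 1.94, 1.65 and 1.80 in Clip and 2.46, 2.46 and 2.61 in ClipR-14 kidneys and fell by 0.73 on the log2 scale (± 0.10, limma adjusted p = 0.000469). Mgst2 had levels of -3.14, -2.81 and -2.78, -2.57, -2.60 and -2.59, and -2.48, -2.61 and -2.45 in the same order of arms. Its change was 0.32 (limma adjusted p = 0.0438), a call lost in 12 of 19 alternative settings, and 0.21 without Sham 1.

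The antioxidant response element, the site through which the factor NRF2 drives many glutathione transferase genes, has the core TGACNNNGC. On either strand this core occurred in 10.2% of the 32851 promoter windows of 250 bases and in those of 4 of the 40 tested members with an entry. The share counts windows and the members are counted as genes, which had 51 windows. These 4 windows are shown because only one of the genes rose in Clip kidneys; each holds 20 bases on either side of the core, which is in capitals, 5′ to 3′ on the gene's strand (RefSeq, GRCm38.p6). They lie at chr6:138140451-138140499 (plus strand, Mgst1, where the core is on the opposite strand), chr3:107931715-107931763 (minus, Gstm7), chr3:107895792-107895840 (plus, Gstm5) and chr1:21240444-21240492 (plus, Gsta3).
Mgst1: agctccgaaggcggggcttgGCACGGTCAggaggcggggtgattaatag
Gstm7: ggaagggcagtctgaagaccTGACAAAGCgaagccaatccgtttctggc
Gstm5: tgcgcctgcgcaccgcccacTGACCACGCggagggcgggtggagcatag
Gsta3: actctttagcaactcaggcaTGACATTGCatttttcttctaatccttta
The core begins 56 bases before the start in Mgst1 and 129 before it in Gstm7, each at 1 of 2 listed starts, 42 before it in Gstm5 and 121 before it in Gsta3. The clip changes of these genes were 1.33, -0.74, -0.06 and -0.58 in that order. A match is a description of letters and not a shown binding site.

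Glucuronosyltransferases fell or did not pass. Of 9 tested, 6 were lower in Clip kidneys, all by at least 2-fold, and 3 did not pass, with a median log2 change of -1.05. Both Ugt3 genes, whose enzymes use UDP-N-acetylglucosamine or UDP-glucose instead of UDP-glucuronate, had the largest falls. Ugt3a1 stood at 5.32, 5.40 and 5.18 in control, 3.21, 2.67 and 3.15 in Clip and 5.39, 5.19 and 5.15 in ClipR-14 kidneys, a 4.89-fold fall (-2.29 ± 0.15, limma adjusted p = 1.2e-05). Ugt3a2 had levels of 7.21, 7.17 and 7.06, then 5.15, 4.78 and 5.29, then 6.99, 6.86 and 6.95, a 4.21-fold fall (-2.08 ± 0.13, limma adjusted p = 9.91e-06). In ClipR-14 kidneys all 3 Ugt3a2 values lay below all 3 of control and Ugt3a1 values overlapped with control.

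Ugt2b38, one of the Ugt2b enzymes that conjugate steroids and drugs, read 5.27, 5.09 and 5.44 in control, 3.80, 3.72 and 4.10 in Clip and 5.08, 4.46 and 4.77 in ClipR-14 kidneys. It fell 2.63-fold (-1.39 ± 0.18, limma adjusted p = 0.000297), and its ClipR-14 values stayed below the lowest control value. Ugt2b36 changed by -1.27, Ugt2b37 by -1.05 and Ugt1a6b by -1.03, which passed. Ugt2b34 (-0.38), Ugt2a3 (-0.02) and Ugt2b5 (0.75) did not. The Ugt2b5 value rested on Clip 2 at -1.47, with -2.72 and -2.74 on the other Clip arrays and -3.18 to -2.93 in control. Ugt2b34 passed without Sham 1 (-0.66, limma adjusted p = 0.0115). Under normexp Ugt2a3 was at 0.44 (limma adjusted p = 0.14). Ugt1a6b was the single Ugt1 gene tested, and Ugt1a genes share their last exons, so its probe may read other Ugt1a transcripts.

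Sulfotransferases of the Sult1 family fell, 4 of 4 tested. Sult1d1, a kidney enzyme that sulfates catecholamines and phenols, had levels of 5.15, 5.25 and 5.53 in control, 3.44, 2.999 and 4.14 in Clip and 4.83, 4.72 and 5.18 in ClipR-14 kidneys. The Clip arrays were uneven but all below the others, and the fall was 3.44-fold (-1.78 ± 0.27, limma adjusted p = 0.00078). Sult1a1, the phenol sulfotransferase, stood at 1.96 and 1.50 on the sham arrays, 0.90 on the untreated array, -0.20, -0.33 and -0.44 in Clip and 1.22, 1.45 and 1.25 in ClipR-14 kidneys, a 3.43-fold fall (-1.78 ± 0.23, limma adjusted p = 0.000361). Sult1b1 read -0.48 and -0.52 on the sham arrays and 0.00 on the untreated array, -1.12, -1.54 and -0.86 in Clip and -0.63, -0.78 and -0.60 in ClipR-14 kidneys. Its change was -0.84 ± 0.20 (limma adjusted p = 0.00737), or -0.35 under normexp (adjusted p = 0.103), and -1.36 on a second probe. Sult1c2 changed by -0.46, or -0.17 with quantile normalization (limma adjusted p = 0.25).

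Outside the Sult1 family, Sult4a1 and Sult2b1 rose and Sult5a1 (0.15) did not pass. Sult4a1, a form best known from brain with no settled substrate, was not well above background in control (-4.24, -4.69 and -5.26), and stood at -0.93, -0.65 and -1.26 in Clip and -3.71, -3.74 and -3.15 in ClipR-14 kidneys. It was at least 10.1-fold higher in Clip than in control (limma adjusted p of the fitted change 1.83e-05), and at least 1.67-fold higher in ClipR-14, which did not pass (limma adjusted p = 0.0665). The fitted clip change was 3.78, or 1.72 under normexp, and no second Sult4a1 probe passed the background filter. Sult2b1, which sulfates cholesterol and other hydroxysteroids, read -2.70, -3.68 and -2.94, then -2.04, -2.45 and -2.22, then -2.67, -2.58 and -3.07. Its rise of 0.87 ± 0.25 (limma adjusted p = 0.0207) no longer passed without Clip 1 (adjusted p = 0.0702) or Clip 3 (adjusted p = 0.052).

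Of the N-acetyltransferases, Nat2 fell and Nat1 did not pass. Nat2 stood at 1.02, 0.46 and 0.95 in control, -0.37, -0.45 and -0.08 in Clip and 0.42, 0.07 and 0.63 in ClipR-14 kidneys. The Clip values were below all others (-1.11 ± 0.20, limma adjusted p = 0.00175), and the ClipR-14 values overlapped with control only at the second sham array. Nat1 changed by -0.39 (limma adjusted p = 0.115), or 0.56 under normexp, and was above background on 5 of 9 arrays.

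The next comparison asked what was left 12 days after the clip came off. No member passed between ClipR-14 and control kidneys, higher or lower (limma, 0 of 50; 9 at an unadjusted p under 0.05, against 3811 of 17742 genes). Among all genes 1.46% were higher and 0.372% lower. The median change was -0.08, and the values of the arms did not overlap for 15 members, against 27.2% of all genes. The 9 members at an unadjusted p under 0.05, named after their values were seen, were Sult4a1 (at least 1.67-fold), Gstm2 (0.40), Mgst2 (0.39), Mgst1 (0.38) and Gsto2 (0.28), which were higher, and Ces1c (at least 1.78-fold), Ugt2b34 (-0.60), Ugt2b38 (-0.49) and Gstp1 (-0.23), which were lower. Missing the threshold does not show that levels were those of control: the 95% interval of the Ces1g difference ran from -1.18 to 1.22, and that of Ces1e from -0.65 to 0.27. For Ces1c, below background on all ClipR-14 arrays, values were -3.89, -3.94 and -5.55. This gene passed the filter through the control arrays alone, which favoured a lower ClipR-14 value, and normexp gave -0.29. Without Ces1c and Gstp3, 8 of 48 members had an unadjusted p under 0.05 (limma), and the arms did not overlap for 14.

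Set against Clip kidneys directly, 29 of 50 members were higher in ClipR-14 kidneys, 4 were lower and 17 did not pass (limma), while 23.5% of all genes were higher and 17.4% lower. The Clip arrays are those of the first comparison, so the comparisons are not independent. Ces1c was above background on no array of either arm here and Gstp3 on Clip arrays alone, and without them 28 of 48 were higher and 3 lower. By family, 10 of 10 carboxylesterases (Ces1c included), 6 of 9 glucuronosyltransferases, 7 of 19 cytosolic glutathione transferases, 3 of 7 sulfotransferases, 2 of 2 N-acetyltransferases and 1 of 3 microsomal transferases were higher. Under normexp 21 members were higher: the sign turned for Ces1c, Ces2a, Gstm7 and Nat1, and Ces2g (0.02), Ces2e (0.31), Gsta4 (0.01), Gsto2 (0.53) and Nat2 (0.53) no longer passed while Gstt2 did, which left 6 of 10 carboxylesterases higher. Ces1g was 32.1-fold, Ces1e 24.6-fold and Ces1d 15.9-fold higher in ClipR-14 than in Clip kidneys. The 4 lower members were Gstp3 (at least 2.68-fold), Sult4a1 (-2.59), Gstm6 (-1.40) and Mgst1 (-0.95).

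**Figure D3:**
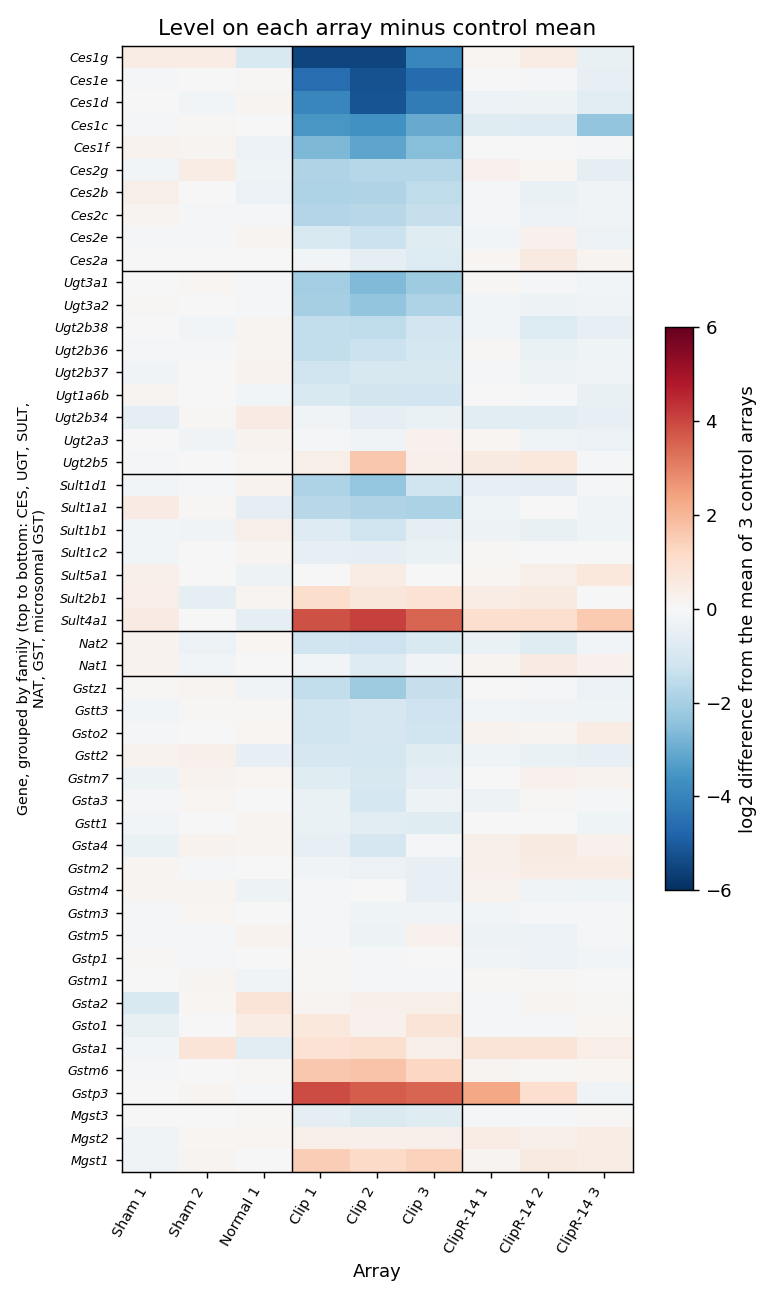
Level of each tested member (rows, grouped by family) on each of the 9 arrays (columns) as the log2 difference from the mean of the 3 control arrays; blue is lower and red higher. The 3 Clip columns differ from both neighbours, with Ces1 genes bluest and Sult4a1 and Gstp3 reddest; readings of Gstp3, Sult4a1 and Ces1c that are not above background are drawn as measured.

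The pathways that feed and drain the conjugation reactions were read from lists of other genes. Counts for each list, here and below, are for Clip against control kidneys, where 27.5% of all genes were lower and 21.4% higher. The lists are short, and whether their counts differ from these shares was not tested. Of 6 glutathione synthesis genes tested 4 fell and none rose, led by Cbs (-1.73 ± 0.12) and Cth (-1.57 ± 0.21), the enzymes of the route from homocysteine to cysteine, while Gclc, the catalytic subunit of the first synthesis step, was at -0.12 (limma adjusted p = 0.584). Of 7 genes of glutathione breakdown and of the mercapturate route, which processes glutathione conjugates, 6 fell. The largest of these were Dpep1, a dipeptidase (-2.69 ± 0.16), and Acy1, an aminoacylase (-2.35 ± 0.18). Of 5 genes of UDP-glucuronate supply and glucuronide cleavage 2 fell and none rose, Ugp2 by 0.60 and Slc35d1 by 0.52 on the log2 scale.

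For sulfation, 4 of 6 genes of donor supply and sulfate cleavage fell and 1 rose. Papss2 (-1.73 ± 0.15) and Papss1 (-1.19 ± 0.12), which make the sulfate donor, both fell, and Slc13a1, the sodium-sulfate cotransporter of the proximal tubule, rose by 1.21 ± 0.17. Among 9 exporters of conjugates and other organic compounds 4 rose and 4 fell. Abcc3 (2.19 ± 0.14) and Abcb1b (1.59 ± 0.39) rose most, and Abcc6 (-2.20 ± 0.70) and Slc47a1 (-1.54 ± 0.14) fell most. Of 9 uptake carriers for organic ions 7 fell and 1 rose. These included the anion carriers Slc22a8 (-3.56 ± 0.42) and Slc22a7 (-3.20 ± 0.18), which fell, and the prostaglandin carrier Slco2a1 (1.20 ± 0.11), which rose.

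Other conjugating enzymes and hydrolases were lower in most cases. Of 11 further transferases and acyl-CoA ligases 8 fell, among them Inmt, a methyltransferase (-4.60 ± 0.16), and Acsm2 (-2.58 ± 0.17), while Nnmt, which methylates nicotinamide, rose by 2.80 ± 0.17. Of 8 hydrolases 5 fell, led by Mgll (-1.57 ± 0.24) and Ephx2 (-1.54 ± 0.14), and Pon3 rose by 0.45 ± 0.13.

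Regulators of these genes and NRF2 targets outside the families did not move one way. Of 13 regulators 6 fell and 2 rose. The nuclear receptors Ppara (-1.71 ± 0.14) and Nr1h4 (-1.51 ± 0.26) had the largest falls, and Ahr (0.56 ± 0.11) and Nr1i2 (0.53 ± 0.17), the aryl hydrocarbon and pregnane X receptors, were the 2 that rose. Nfe2l2, which encodes NRF2, was at 0.07 and its inhibitor Keap1 at 0.12, and neither passed. Of 7 NRF2 targets 3 rose, with Akr1b8 at 3.60 ± 0.16 and Hmox1 at 1.51 ± 0.09, and 2 fell, Osgin1 at -1.65 ± 0.24 and Me1 at -1.25 ± 0.11. No gene of these 10 lists passed between ClipR-14 and control kidneys, where 1.46% of all genes were higher and 0.372% lower.

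**Figure D4:**
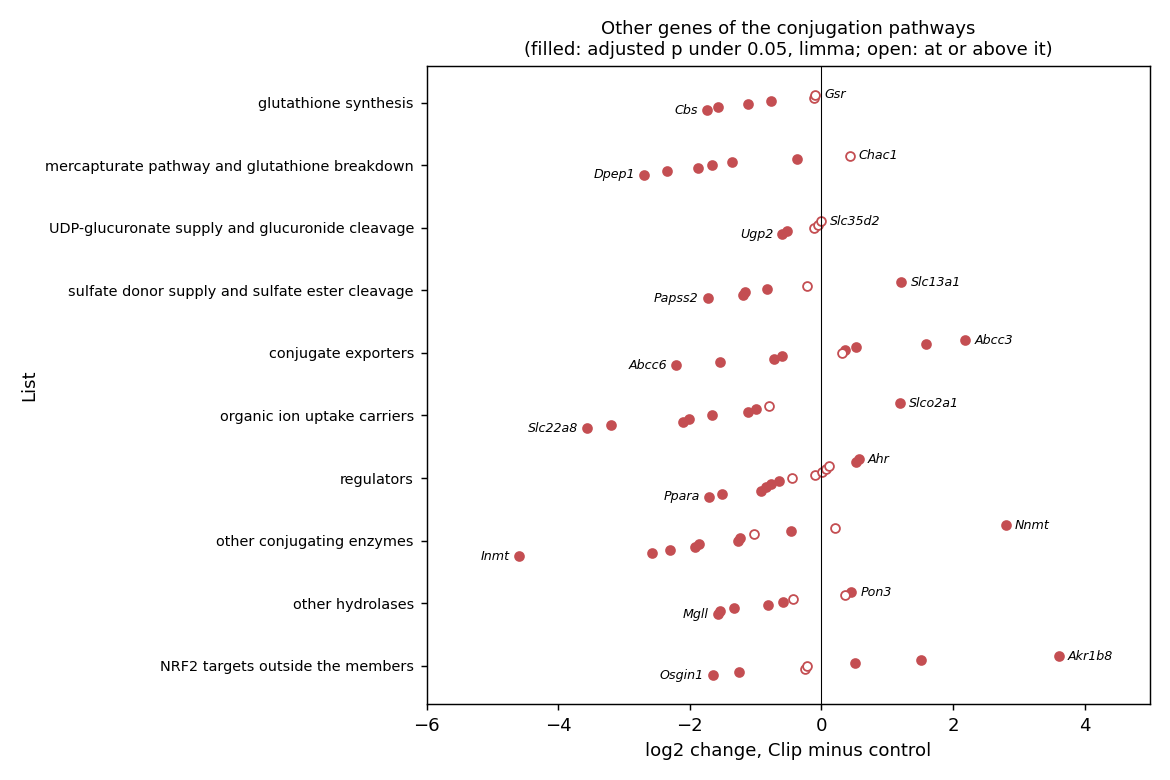
Log2 change in Clip against control kidneys of each tested gene (points) of 10 lists of related genes; filled points passed an adjusted p of 0.05 (limma), and the lowest and highest gene of each list are named. The mercapturate, uptake carrier and other conjugating lists lie mostly below 0, and exporters and NRF2 targets lie on both sides.

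The log2 changes of the proximal tubule markers in Clip against control kidneys ran from -2.33 to -0.41 with a median of -1.33. Their part in the falls of the members was not tested.

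The 17 members that had a probe but were above background on too few arrays to be tested were Ces1b, Ces2f, Ces3b, Gstt4, Nat3, Sult1c1, Sult1e1, Sult2a2, Sult2a4, Sult2a8, Sult3a2, Sult6b1, Ugt1a1, Ugt1a9, Ugt2a1, Ugt2b1 and Ugt2b35. Many members are close copies of their neighbours, and how far their probes read one another's transcripts was not tested.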

How the data were processed

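Per the labels, 500 ng of total RNA per kidney was labelled with Cy3 and hybridized to Agilent arrays in 1 colour. The deposited intensity of each spot had, per the file headers, its background subtracted and its spatial trend removed by Feature Extraction 10.7.3.1, with nothing scaled between arrays. Other deposited columns are flags of 0 or 1 (well above background, saturated, outlier). A deposited log2 table was not used: over 8080 matched rows its median correlation with the named probe was 0.0188.

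Levels are log2 ratios of the signal to the 75th percentile of its array. Outlier-flagged spots were left out, repeat spots averaged, and probes well above background on at least 3 arrays kept. Accessions were named through the RefSeq table (26690 of 41174 probes). Sham and Normal arrays formed 1 control arm. Models with 3 arms over 9 arrays were fitted in R 4.3.3 with limma 3.58.1 (2.37 prior degrees of freedom), adjusted by Benjamini-Hochberg within a comparison, and tested on simulated data. The number of arrays limits the precision.

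Values on every array are given, per family, for the gene of highest control signal, the 3 largest falls and the 2 largest rises past the threshold in Clip against control; per other list, at most 2 falls and 2 rises are named as past the threshold. Genes given beyond this rule were chosen after their values were seen. The members and lists were chosen with earlier results of these data known. Alternatives covered background correction, scaling, filter, probe choice, slide and replicate blocks, the control arm, the samples fitted and each array left out.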

Additional observations from a re-analysis of the deposited data

How the results depend on the processing

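The direction and the side of the threshold held, in each alternative in which the member was fitted, for 24 of the 36 members called in Clip against control kidneys and for 23 of the 33 called in ClipR-14 against Clip; Gstp3 and Sult4a1, among both, were not fitted where all 9 arrays had to be above background. The count of lower members in Clip kidneys ran from 27 to 30 when each array was left out in turn and the count of higher members from 4 to 7; in ClipR-14 against Clip kidneys 26 to 31 members were higher in ClipR-14 and 4 to 5 lower. The count between ClipR-14 and control kidneys was 0 in each alternative. Few of all 17742 genes passed in some of these. When the 2 arms alone were fitted, 0 genes were higher and 0 lower, and under normexp 0 and 1. With slide as a block 751 genes were higher and 412 lower. With quantile normalization 10 members were higher in Clip kidneys in place of 6, and Gstm1 (0.42) and Gstp1 (0.42) turned and passed; the median of all genes moved from -0.09 to 0.00. Normexp was run on the spots' median signals, and was chosen after the files were seen since they hold no mean signal. It called 22 members lower and 5 higher in Clip against control, and 21 higher and 4 lower in ClipR-14 against Clip. Among all 17742 genes normexp called 3107 lower and 2519 higher in the first comparison, and 2270 higher and 1874 lower in the second. Under it Ces1c (0.12), Ces2a (0.48) and Gstm7 (0.17) turned in Clip against control, and Ces1c (-0.41), Ces2a (-0.52), Gstm7 (-0.16) and Nat1 (-0.52) in ClipR-14 against Clip. The cause was not tested. With the percentile taken over detected probes, 4934 genes were higher and 3605 lower in Clip kidneys, in place of 3789 and 4887.

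With slide as a block 29 members were lower and 8 higher in Clip than in control kidneys. In ClipR-14 against Clip 30 were higher and 6 lower, with Sult1b1, Gsto1 and Gstp1 added. Among all genes 5879 were then lower and 4458 higher in the first comparison, and 5217 higher and 3772 lower in the second. With the replicate block, 27 members were lower and 6 higher in Clip than in control kidneys, where Ces2a, Gsta3, Gstm2 and Mgst2 no longer passed and Ugt2b5 did. In ClipR-14 against Clip 30 were higher and 4 lower. The counts over all genes were 4837 lower and 3757 higher in the first comparison, and 4369 higher and 3156 lower in the second. Numbers did not pair all samples. Deviations of the 7 same-numbered pairs on a shared slide correlated at 0.161 to 0.269. The 2 pairs with different numbers on a shared slide, Normal 1 with ClipR-14 3 and with Clip 3, correlated at 0.279 and 0.282. Normal 1 correlated at -0.209 with both arrays of its own number, which lay on another slide. Of 9 arrays 6 correlated best with their own number.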
